A study of Rattus norvegicus with 35 samples.

Results

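The NR4A orphan nuclear receptor genes Nr4a1, Nr4a2 and Nr4a3 were followed in cyclically stretched neonatal rat ventricular myocytes (NRVMs). Their members were the probe sets whose annotation names only one of these symbols, which gave 6 probe sets of 3 genes, out of 31042 probe sets and 14217 genes on the array. Each probe set combines several short probes for one transcript. Nr4a1 had 1 probe set (1386935_at), Nr4a2 had 2 (1369007_at and 1387410_at) and Nr4a3 had 3 (1393389_at, 1369067_at and 1369217_at). The brightest of each gene over all 35 arrays, 1386935_at, 1369007_at and 1393389_at, stands for the gene unless another is named, and all 6 are shown.

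The 35 arrays fall into 7 groups of 5 biological replicates. Set I (20 arrays) holds an unstretched control and cultures stretched for 1, 4 and 12 h. Set II (15 arrays) has its own unstretched control and covers 24 and 48 h of stretch. All groups are ventricular cells of Sprague-Dawley rats 2 to 4 days old (pups of both sexes, their number per culture not given in the sources used here), enriched for myocytes by pre-plating and kept on flexible collagen-coated plates in serum-free medium, and stretch was a cyclic vacuum pull on the plate bottom. Stretch was begun at staggered times and ended at once, so a set's groups share their time in culture.

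NR4A receptors are transcription factors of the nuclear receptor superfamily. They are called orphans because their ligand pocket is largely filled by the protein's own side chains, and their activity is thought to follow mainly from how much receptor a cell makes. The 3 genes are classical immediate early genes, switched on by growth factors, calcium, cAMP and membrane depolarization through transcription factors such as CREB and MEF2. The proteins bind the NBRE element as monomers, and Nr4a1 and Nr4a2 also pair with retinoid X receptors (RXRs), which Nr4a3 does not readily do. In heart and skeletal muscle of rodents the family is known for its induction by adrenergic stimulation and for its regulation of glucose and fat metabolism.

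The sequence before the transcript start is shown because CREB binds the cAMP response element (CRE), whose core is TGACG on one strand and CGTCA on the other. RefSeq promoter windows (build GRCr8, 250 bases before to 50 after a transcript start) were found for 2 of the 3 genes, Nr4a1 and Nr4a2. The part before the start is printed from 5′ to 3′ on the gene's strand, with each CRE core in capitals, and lies at chr7:134259888-134260137 on the plus strand for Nr4a1 and at chr3:62104888-62105137 on the minus strand for Nr4a2.
Nr4a1: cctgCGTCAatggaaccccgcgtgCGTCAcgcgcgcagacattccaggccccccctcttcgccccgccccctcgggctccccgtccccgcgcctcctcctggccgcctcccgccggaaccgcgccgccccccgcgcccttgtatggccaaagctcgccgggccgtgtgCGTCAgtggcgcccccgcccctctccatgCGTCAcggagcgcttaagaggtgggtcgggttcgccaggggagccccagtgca
Nr4a2: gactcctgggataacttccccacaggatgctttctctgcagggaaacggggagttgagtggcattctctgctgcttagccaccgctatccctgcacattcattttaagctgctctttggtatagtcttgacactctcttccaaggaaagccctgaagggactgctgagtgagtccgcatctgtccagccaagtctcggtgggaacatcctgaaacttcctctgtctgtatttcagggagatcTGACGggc

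The Nr4a1 window held 4 CRE cores, all in the CGTCA orientation, beginning 246, 226, 82 and 53 bases before the start. The Nr4a2 window held 1, in the TGACG orientation, beginning 8 bases before the start. At least 1 core was present in 21.2% of all 33469 windows and at least 4 in 0.236% of them. The Nr4a1 window also held 3 GC boxes (GGGCGG, read on both strands), a motif found in 33.1% of windows, and none lay in the Nr4a2 window. The full CRE (TGACGTCA, which contains the core), the NBRE (AAAGGTCA), the AP-1 site (TGANTCA), the TATA box (TATAAA), the CCAAT box and the CArG box of SRF had no match in either window, against 1.83%, 1.43%, 7.33%, 14.2%, 37.5% and 1.64% of all windows on either strand. GC content was 72.3% in the Nr4a1 window, higher than in 94.4% of windows, and 48.7% in the Nr4a2 window. A match is a description of the letters and does not show binding.

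**Figure D1:**
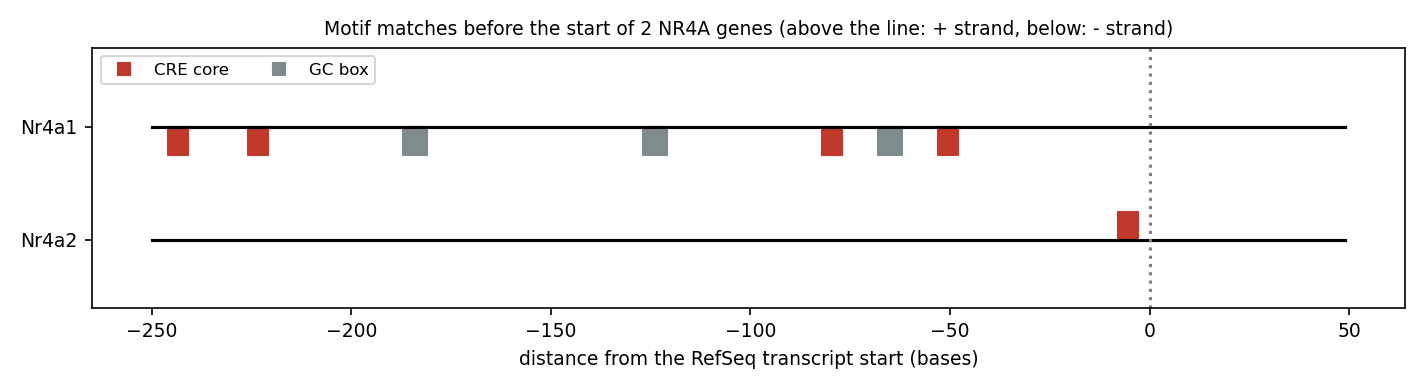
Matches to the CRE core and the GC box along the promoter windows of Nr4a1 and Nr4a2, by distance in bases from the RefSeq transcript start (dotted line at 0), with plus-strand matches above each line and minus-strand matches below. The Nr4a1 window holds 4 CRE cores and 3 GC boxes, and the Nr4a2 window holds 1 CRE core.

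Median intensity was 88.7 to 93.05 on the arrays of set I and 90.43 to 95.77 on those of set II. Of 12 cardiomyocyte markers, 11 were measured, and each had a mean level at or above the 98.23 percentile mark of all probe sets. Cardiac fibroblast markers were bright as well (9 of 9 measured, from a percentile of 83.86 for Tcf21 to 99.88 for Col3a1), and which cells made NR4A mRNA was not measured. In such bulk RNA, fewer cells of a type and less RNA per cell cannot be told apart.

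After 1 h of stretch all 3 NR4A genes rose, with every one of the 5 stretched arrays above every control array at all 6 probe sets, which was so for 6.2% of all probe sets. Nr4a1 was 5.99-fold, Nr4a3 5.30-fold and Nr4a2 2.09-fold higher than in unstretched myocytes. Among the 14217 genes, ordered by the size of the rise, Nr4a1 was the fifth, Nr4a3 the seventh and Nr4a2 number 53. All 6 probe sets were called higher, at an adjusted p under 0.05, where 6.32% of all probe sets were. By genes, 3 of 3 were called and at least 1.5-fold higher, against 0.999% of all genes. Nr4a3 probe set 1369067_at had the largest rise of all 31042 probe sets at 1 h, 17.5-fold.

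Nr4a1 encodes Nur77, the member first known as a nerve growth factor response gene. Its log2 intensities were 10.71, 10.80, 10.69, 10.91 and 10.69 after 1 h of stretch, against 8.19, 8.13, 8.18, 8.26 and 8.14 in the controls. The groups lie far apart, since the lowest stretched array exceeded the highest control by many times the spread within either group. The log2 fold change was 2.58 (standard error 0.051, adjusted p = 1.33e-18, limma), with a 95% confidence interval of 5.57 to 6.45 for the fold.

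Nr4a3 encodes NOR1, first found in neurons undergoing cell death. At its main probe set 1393389_at the log2 intensities were 7.65, 8.12, 7.88, 8.43 and 7.79 at 1 h, against 5.62, 5.62, 5.64, 5.36 and 5.59 in the controls. Stretched arrays were all higher, and they varied more among themselves (SD 0.307) than the controls (SD 0.115). The log2 fold change was 2.41 (standard error 0.106, adjusted p = 8.09e-13). Probe set 1369067_at read 8.89, 9.27, 9.01, 9.31 and 8.53 at 1 h, against 4.79, 4.96, 4.76, 4.97 and 4.88 in the controls, a log2 fold change of 4.13 (standard error 0.111, adjusted p = 1.66e-16). Replicate 4 was the highest of the stretched arrays at both of these probe sets. The third, 1369217_at, read 4.51, 4.54, 4.62, 4.72 and 4.52 at 1 h, against 4.24, 4.33, 4.34, 4.24 and 4.46 in the controls. Its groups did not overlap but lay close together, with a log2 fold change of 0.26 (standard error 0.077, adjusted p = 0.027). That call was lost without control replicate 1, 2 or 4 of set I or replicate 3 or 4 of the 1 h group (0.23 to 0.26, adjusted p = 0.0503 to 0.0799).

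Nr4a2 encodes Nurr1, a receptor required for midbrain dopamine neurons. Its main probe set 1369007_at read 7.28, 7.48, 7.23, 7.33 and 6.96 at 1 h, against 6.14, 6.41, 6.25, 6.13 and 6.03 in the controls. Even the lowest stretched array, replicate 5, was above the highest control. The log2 fold change was 1.06 (standard error 0.080, adjusted p = 4.45e-09). The dimmer probe set 1387410_at read 4.72, 5.02, 4.77, 5.26 and 4.80 at 1 h, against 4.27, 4.38, 4.59, 4.43 and 4.67 in the controls. There the lowest stretched array cleared the highest control narrowly, and the log2 fold change was 0.45 (standard error 0.090, adjusted p = 0.00151).

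**Figure D2:**
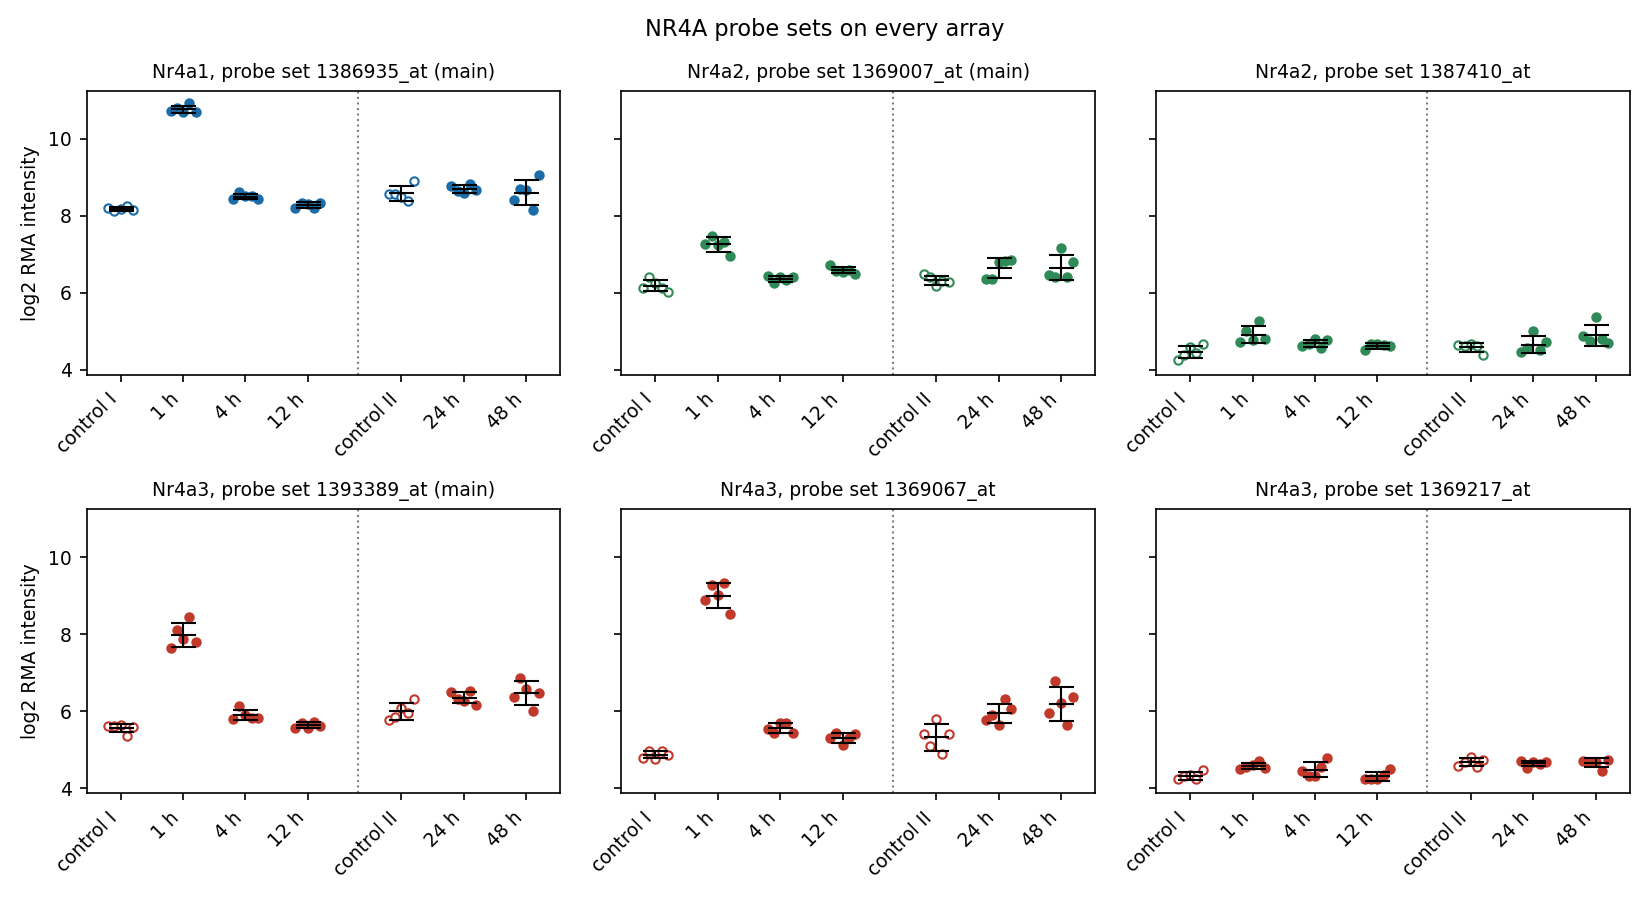
Log2 RMA intensity of the 6 NR4A probe sets on each of the 35 arrays, in 7 groups of 5 (open points, controls; filled points, stretched; bar, mean ± SD), with sets I and II on either side of the dotted line. At 1 h all 5 stretched arrays lie above all 5 controls at every probe set, and Nr4a1 reaches a mean of 10.76 against 8.18 in the controls.

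Whether the genes rose to the same extent was tested on the difference between 2 log2 values of the same array, compared between 5 stretched and 5 control arrays by an exact two-sided permutation test, whose smallest p is 0.00794. In all, 7 pairs of probe sets were compared at 5 times, 35 comparisons, and p-values were adjusted over them. At 1 h the log2 fold change of Nr4a1 exceeded that of Nr4a2 by 1.52 (standard error 0.103, exact p = 0.00794, adjusted 0.0309), and that of Nr4a3 exceeded that of Nr4a2 by 1.34 (standard error 0.139, exact p = 0.00794, adjusted 0.0309). The rises of Nr4a1 and Nr4a3 differed by 0.18 (standard error 0.122), which did not pass the test (exact p = 0.175, adjusted 0.266). It did on the raw p without replicate 4 of the 1 h group (difference 0.25, exact p = 0.0476).

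Probe sets of the same gene also differed. At 1 h the change of Nr4a3 at 1393389_at was 1.72 log2 units smaller than at 1369067_at (written as a difference, -1.72, standard error 0.127) and 2.15 larger than at 1369217_at. The change of Nr4a2 was 0.62 larger at 1369007_at than at 1387410_at (standard error 0.148). Each of these differences had the smallest exact p the design allows, 0.00794 (adjusted 0.0309). The size of a fold at 1 h therefore holds for the probe set that gave it, while its direction was the same at every probe set of the gene.

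**Figure D3:**
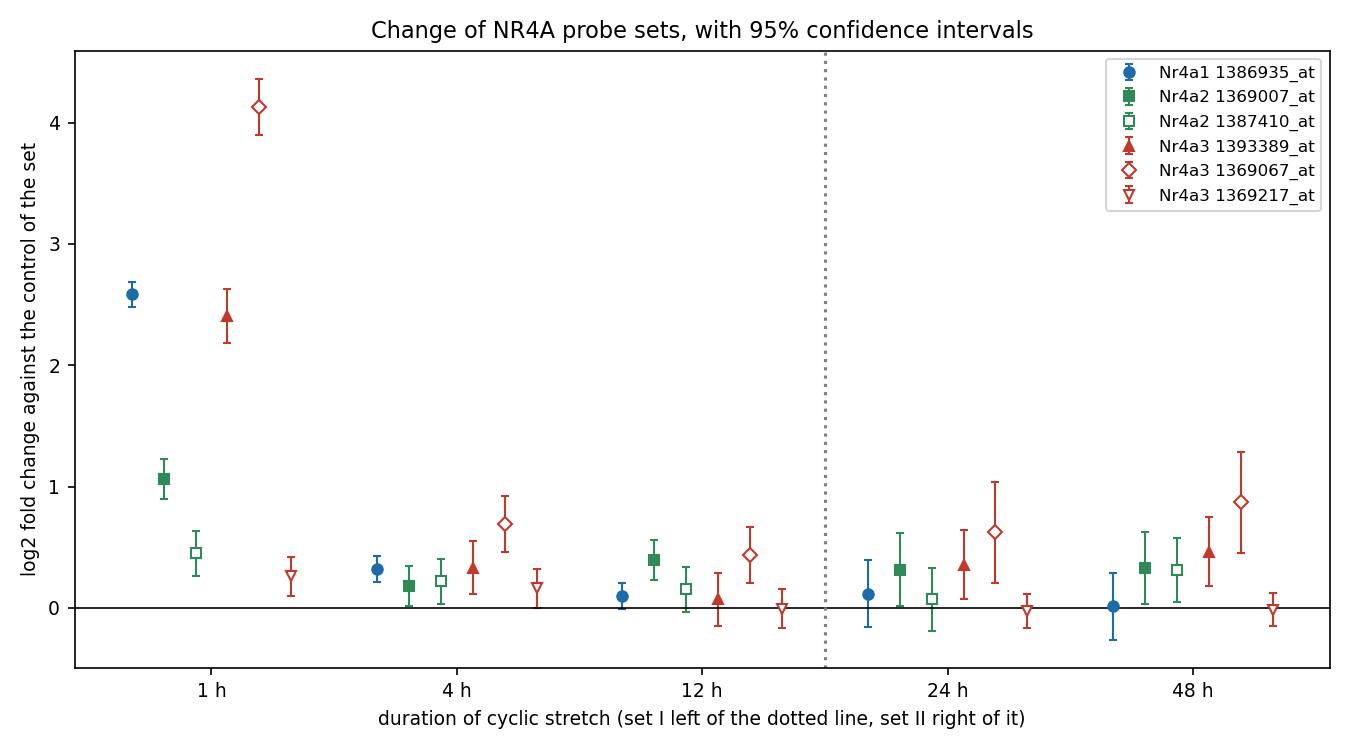
Log2 fold change of each NR4A probe set against the control of its set at 1, 4, 12, 24 and 48 h, with 95% confidence intervals (filled, main probe set of the gene; open, other probe sets; n = 5 arrays per group). The 1 h values run from 0.26 (Nr4a3, 1369217_at) to 4.13 (Nr4a3, 1369067_at), and no value at 4 to 48 h exceeds 0.87.

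By 4 h the NR4A levels had come most of the way back at the main probe sets and at 1369067_at. Set against 1 h, the 4 h level was lower by a log2 difference of -2.26 for Nr4a1 (adjusted p = 3.77e-17), -2.08 for Nr4a3 (adjusted p = 2.75e-11) and -0.88 for Nr4a2 (adjusted p = 2.17e-07). At Nr4a3 probe set 1369067_at it was -3.44 (adjusted p = 8.86e-15). At the dimmest probe sets the 4 h level was not called lower, with log2 differences of -0.23 for Nr4a2 at 1387410_at (adjusted p = 0.102) and -0.10 for Nr4a3 at 1369217_at (adjusted p = 0.48). These differences between times share the same 1 h arrays. Over all genes 8.89% were called lower at 4 h than at 1 h. At 4 h, 2 of the 3 genes were still called higher than the control, where 17.1% of all genes were.

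Nr4a1 read 8.44, 8.61, 8.50, 8.50 and 8.43 at 4 h, all 5 above the highest control (8.26) as for 10.3% of all probe sets, a 1.25-fold higher level (log2 fold change 0.32, adjusted p = 5.72e-05). Nr4a3 read 5.81, 6.12, 5.91, 5.83 and 5.82, also above every control, and was 1.26-fold higher (log2 fold change 0.33, adjusted p = 0.0215). That call was lost without control replicate 4 of set I, the lowest control (0.28, adjusted p = 0.0676), or without replicate 2 of the 4 h group, the highest stretched array (0.27, adjusted p = 0.0648). At 1369067_at Nr4a3 was 1.61-fold higher (adjusted p = 5.86e-05), with 5 of 5 arrays above the controls. Nr4a2 read 6.42, 6.25, 6.42, 6.34 and 6.42, and the groups overlapped, since 3 of 5 stretched arrays exceeded the highest control. Its log2 fold change of 0.18 did not pass the test (adjusted p = 0.101), nor did the 0.22 of 1387410_at (adjusted p = 0.0746). Probe set 1387410_at passed with centred arrays (0.24, adjusted p = 0.0447) and without control replicate 5 of set I (0.27, 0.0315) or replicate 4 of the 1 h group (0.22, 0.0286).

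At 12 h the order of the genes by fold change was another. Nr4a2 was the only one of the 3 called higher at its main probe set, where 19.4% of all genes were. It read 6.71, 6.56, 6.55, 6.60 and 6.49, all above the highest control (6.41) as for 14% of all probe sets, and was 1.31-fold higher (log2 fold change 0.39, standard error 0.080, adjusted p = 0.000538). Its second probe set, 1387410_at, gave 0.15 at 12 h (adjusted p = 0.221), with 1 of 5 stretched arrays above the highest control. The 12 h level of Nr4a2 was 0.21 log2 units above its 4 h level, which did not pass the test (adjusted p = 0.103), so a second rise after 4 h was not shown.

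Nr4a1 read 8.20, 8.33, 8.31, 8.19 and 8.34 at 12 h, overlapping the controls, with a log2 fold change of 0.10 (adjusted p = 0.158). Its level was lower than at 4 h by a log2 difference of -0.22 (adjusted p = 0.00783), a comparison in which 6.22% of all genes were called lower. Nr4a3 read 5.57, 5.70, 5.56, 5.73 and 5.62, with a log2 fold change of 0.07 (adjusted p = 0.693), while its probe set 1369067_at was called, at 1.36-fold (5.30, 5.44, 5.11, 5.30 and 5.41, all above the controls, adjusted p = 0.00373). The log2 fold change of Nr4a3 at 12 h was below that of Nr4a2 (difference -0.33, standard error 0.087, exact permutation p = 0.00794, adjusted 0.0309). This order holds for the main probe sets only, since 1369067_at of Nr4a3 gave 0.44, above both Nr4a2 probe sets (0.39 and 0.15). For Nr4a1 against Nr4a2 the difference of -0.30 did not pass after adjustment (exact p = 0.0317, adjusted 0.0617).

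Ordered by mean level from low to high within set I, Nr4a1 ran control, 12 h, 4 h and 1 h, and so did Nr4a3, while Nr4a2 ran control, 4 h, 12 h and 1 h. The neighbors whose difference did not pass the test were 12 h and control for Nr4a1, 4 h and 12 h as well as 12 h and control for Nr4a3, and 12 h and 4 h as well as 4 h and control for Nr4a2.

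In set II the changes were small, and Nr4a3 was the member that was called. At 48 h it read 6.36, 6.87, 6.58, 6.02 and 6.48, against 5.77, 5.86, 6.08, 5.96 and 6.33 in the controls. Of the 5 stretched arrays 4 exceeded the highest control, and replicate 4 lay among the controls. The level was 1.38-fold higher (log2 fold change 0.46, standard error 0.135, adjusted p = 0.0141), at a time when 22.5% of all genes were called higher. Probe set 1369067_at read 5.95, 6.78, 6.21, 5.63 and 6.38 at 48 h, against 5.42, 5.10, 5.79, 4.89 and 5.40 in the controls, and was 1.83-fold higher (log2 fold change 0.87, adjusted p = 0.00245). The same stretched array, replicate 4, was the lowest at both probe sets. Probe set 1369217_at had log2 fold changes near 0 at 24 and 48 h (-0.03 and -0.02, adjusted p = 0.84 and 0.885).

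At 24 h no NR4A gene was called at its main probe set by limma, where 13.5% of all genes were called higher, although Nr4a2 and Nr4a3 had an unadjusted p under 0.05. Nr4a3 read 6.50, 6.33, 6.26, 6.52 and 6.17 at 24 h, all above the control mean, with a log2 fold change of 0.36 that did not pass the test (adjusted p = 0.0801). It did without control replicate 5 of set II (0.44, adjusted p = 0.0329), or without replicate 2 or replicate 4 of the 48 h group, which enter only the spread (adjusted p = 0.0459 and 0.0405). Probe set 1369067_at gave 5.79, 5.90, 5.66, 6.32 and 6.05 at 24 h, a log2 fold change of 0.62 (adjusted p = 0.0367), at a time when 9.14% of probe sets were called higher. That call was lost when any one of 7 arrays was left out, control replicate 1, 2, 4 or 5 of set II or replicate 2, 4 or 5 of the 24 h group (0.52 to 0.65, adjusted p = 0.0515 to 0.091). It was also lost in the methods' one-way analysis without moderation (0.62, adjusted p = 0.078) and with a replicate block (0.62, adjusted p = 0.0552).

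Nr4a1 did not pass the test in set II. It read 8.78, 8.64, 8.58, 8.83 and 8.67 at 24 h and 8.42, 8.69, 8.67, 8.16 and 9.05 at 48 h, against 8.57, 8.56, 8.49, 8.39 and 8.90 in the controls. Stretched arrays and controls overlapped at both times, and at 48 h the stretched arrays spread more widely (SD 0.332) than in any other group of this gene. The log2 fold changes were 0.12 at 24 h (95% confidence interval -0.16 to 0.39, adjusted p = 0.618) and 0.01 at 48 h (-0.26 to 0.29, adjusted p = 0.951). Set beside Nr4a3, the change of Nr4a1 was lower by a log2 difference of -0.24 at 24 h and -0.45 at 48 h. Neither difference passed after adjustment (both exact permutation p = 0.0238, adjusted 0.0521).

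Nr4a2 read 6.36, 6.36, 6.80, 6.82 and 6.84 at 24 h and 6.46, 6.42, 7.17, 6.42 and 6.80 at 48 h, against 6.48, 6.40, 6.17, 6.31 and 6.27 in the controls. At 24 h the stretched arrays fell into 3 high ones and 2 within the range of the controls, and at 48 h replicate 3 and replicate 5 stood above the rest. The log2 fold changes of 0.31 (95% confidence interval 0.01 to 0.61, adjusted p = 0.146) and 0.33 (0.03 to 0.63, adjusted p = 0.0887) did not pass the test. Its dimmer probe set 1387410_at gave 0.07 at 24 h (adjusted p = 0.761), with 2 of 5 stretched arrays above the control mean. Probe set 1387410_at read 4.87, 4.74, 5.37, 4.81 and 4.69 at 48 h, against 4.65, 4.62, 4.66, 4.61 and 4.38 in the controls, so the groups did not overlap, but its log2 fold change of 0.31 missed the threshold as well (adjusted p = 0.0639). It passed with centred arrays (0.36, adjusted p = 0.0293), array weights (0.35, 0.029), 1 model of all arrays (0.31, 0.0237) and the replicate block (0.31, 0.0203), and without replicate 3 of the 24 h group (0.31, 0.0392) or replicate 5 of the 48 h group (0.36, 0.0446). At this time all stretched arrays were above all controls for 12.2% of all probe sets. No NR4A gene differed between 48 and 24 h by limma, and 0 of the 3 had an unadjusted p under 0.05 (log2 differences of -0.10, 0.02 and 0.11 for Nr4a1, Nr4a2 and Nr4a3, adjusted p = 0.758, 0.977 and 0.757). The mean levels ran control, 24 h and 48 h from low to high for Nr4a2 and Nr4a3 and control, 48 h and 24 h for Nr4a1, and no neighbors in these orders differed by the test. Over all genes 2.97% were called higher and 5.73% lower between these times.

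Within groups, after each group mean had been taken off, the main probe sets of Nr4a1 and Nr4a3 deviated together from array to array (Pearson r = 0.575 over 20 arrays of set I and 0.66 over 15 of set II), and the values for Nr4a1 and Nr4a2 were -0.052 and 0.304. Other probe sets gave another order. Nr4a1 had r = 0.457 and -0.315 with 1387410_at of Nr4a2. With 1369067_at and 1369217_at of Nr4a3 it had 0.454 and -0.123 in set I, and 0.586 and 0.581 in set II. Probe set 1387410_at of Nr4a2 had r = 0.657 and -0.257 with 1393389_at of Nr4a3. The 2 brighter probe sets of Nr4a3 had r = 0.494 and 0.659, and the 2 of Nr4a2 had r = 0.145 and 0.637. The points of each correlation share arrays and their scaling, and the values are given as a description.

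The genes most like each NR4A gene across the arrays of a set were taken from all annotated genes by Pearson r, as a description. For Nr4a1 over the 20 arrays of set I they were Fosb (r = 0.991), a subunit of AP-1, Nr4a3 (0.991), the stress-induced transcription factor Atf3 (0.990), Errfi1 (0.990), which restrains EGF receptor signaling, and Lmod2 (0.985), an actin-filament protein of the sarcomere. For Nr4a3 they were the same 5 with Nr4a1 in its own place (Nr4a1 0.991, Errfi1 0.986, Lmod2 0.982, Fosb 0.980, Atf3 0.979). Nr4a1 and Nr4a3 were thus among each other's nearest genes. Lmod2 had a log2 fold change of 0.66 at 1 h, against 2.58 for Nr4a1, so likeness here is of shape and not of size.

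At its main probe set Nr4a2 had another set of neighbors in set I, namely Has2 (r = 0.929), which makes hyaluronan, the transcriptional repressor Nfil3 (0.915), Sertad1 (0.915), Mob3a (0.913) and Arid5a (0.910). None of these was among the nearest genes of its other probe set 1387410_at, which had r = 0.785 to 0.798. Has2 rose by 1.76 on the log2 scale at 1 h and stood at 0.48 at 4 h and 0.44 at 12 h, against 1.06, 0.18 and 0.39 for Nr4a2. In set II, where the NR4A changes were small, the nearest genes were again taken at the main probe sets. They were Lfng (r = 0.804 over 15 arrays) for Nr4a1, Zfp764l1 (0.856) for Nr4a2 and Atad3a (0.962), a mitochondrial membrane ATPase, for Nr4a3. No gene was named in both sets for the same member. Fos was the fifth nearest to Nr4a1 in set II (0.770).

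Other nuclear receptors did not move as the NR4A genes did. Of 45 listed, 39 were measured, and at 1 h only Nr2f6, an orphan repressor, was called higher (log2 fold change 0.14), while 7 were called lower. Over all genes 8.24% were called higher and 8.3% lower after 1 h, with 17.1% and 19.2% after 4 h, 19.4% and 19.7% after 12 h, 13.5% and 10.1% after 24 h, and 22.5% and 18.4% after 48 h. The 3 NR4A genes thus had the 3 largest rises among the measured nuclear receptor genes at 1 h. The 7 lower genes were Rxrg (-0.46), Nr2f2 (-0.38), Nr1d2 (-0.32), Thrb (-0.28), Nr0b2 (-0.28), Nr1d1 (-0.23) and Nr1h4 (-0.21). At 48 h, 2 were higher and 8 lower, and the largest changes were Rxrg (-2.25), the thyroid hormone receptor Thrb (-0.91), the retinoic acid receptor Rarb (-0.78) and the clock repressor Nr1d1 (0.64, above the 0.46 of Nr4a3).

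**Figure D4:**
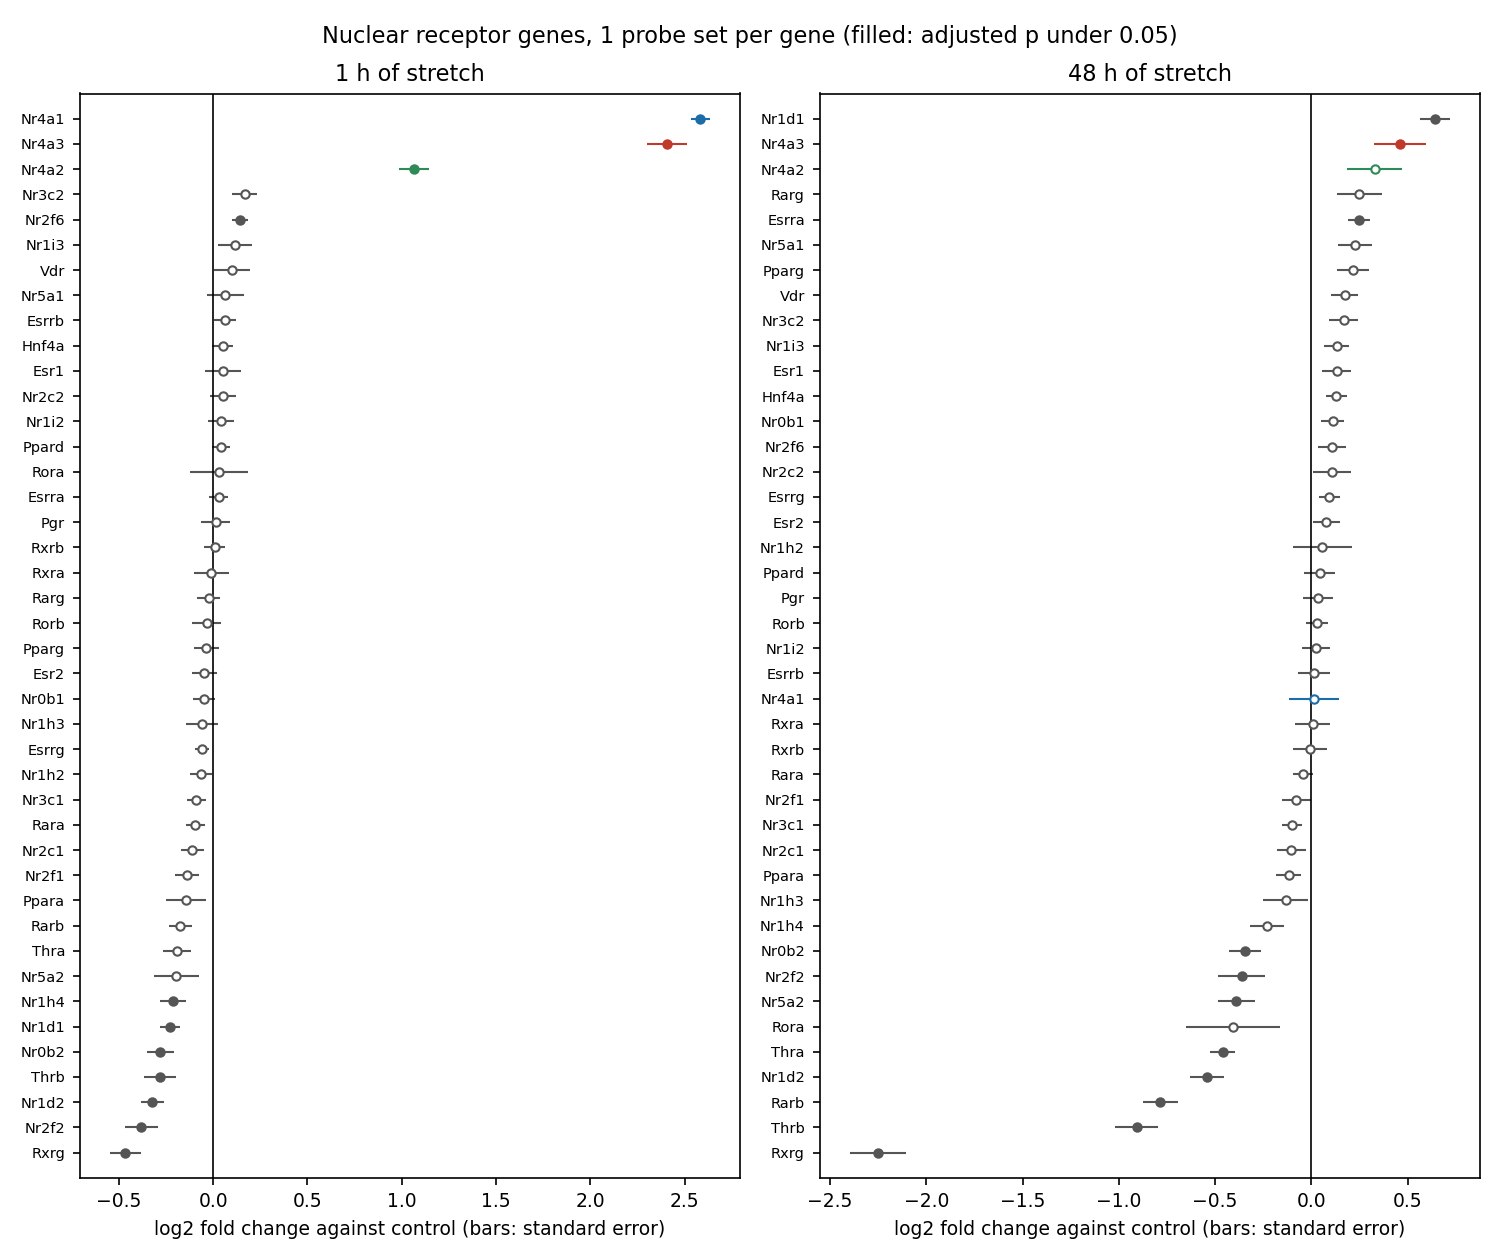
Log2 fold change of the 3 NR4A genes (colored) and 39 other nuclear receptor genes (gray) at 1 h and 48 h, ordered by value, 1 probe set per gene (filled, adjusted p under 0.05; bars, standard error). At 1 h the NR4A genes occupy the top of the list at 2.58, 2.41 and 1.06, and at 48 h Rxrg is the lowest at -2.25.

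Among the RXR genes, whose proteins pair with Nr4a1 and Nr4a2, Rxrg was lower than in the controls at all 5 times. It stood at 0.725-fold of the control level at 1 h, 0.550-fold at 4 h, 0.723-fold at 12 h, 0.510-fold at 24 h and 0.210-fold at 48 h (adjusted p = 0.000558, 1.18e-07, 0.000156, 0.000262 and 2.12e-08). Rxra passed the test at 12 h alone (log2 fold change 0.25, adjusted p = 0.0379), and Rxrb had log2 fold changes between -0.01 and 0.06. Of the 18 measured of 20 partners and coregulators, RXRs included, 1 was higher and 1 lower at 1 h (Kdm1a 0.14, a histone demethylase, and Rxrg), 2 and 3 after 4 h, 4 and 4 after 12 h, 1 and 3 after 24 h, and 1 and 4 after 48 h. As higher and lower shares, these were 5.56% and 5.56%, 11.1% and 16.7%, 22.2% and 22.2%, 5.56% and 16.7%, and 5.56% and 22.2%. Over all genes the shares were 8.24% and 8.3%, 17.1% and 19.2%, 19.4% and 19.7%, 13.5% and 10.1%, and 22.5% and 18.4%. Apart from Rxrg, the largest change was a lower level of Ppargc1a, the coactivator PGC-1alpha (-0.78 at 4 h and -0.98 at 48 h).

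Genes of CREB and MEF2 regulation (31 of 35 measured) included 6 higher and 2 lower at 1 h, or 19.4% and 6.45%, against 8.24% and 8.3% of all genes. Whether any of them acted before the NR4A genes was not tested. The higher ones with the largest change were Rcan1 (0.78), an inhibitor of calcineurin, the CREB-family gene Crem (0.73), Sik1 (0.61), a kinase that restrains CREB coactivators, and Srf (0.46). Higher and lower counts were 6 and 6 after 4 h, 8 and 7 after 12 h, 5 and 4 after 24 h, and 5 and 7 after 48 h. As shares these were 19.4% and 19.4%, 25.8% and 22.6%, 16.1% and 12.9%, and 16.1% and 22.6%. Over all genes they were 17.1% and 19.2%, 19.4% and 19.7%, 13.5% and 10.1%, and 22.5% and 18.4%. Of the other early genes known to respond to CREB (28 of 30 measured), 24 were called higher and 0 lower at 1 h, where 8.24% of all genes were called higher, and their median log2 fold change was 0.67. Only Atf3 (3.11) and Fosb (2.998) of that list exceeded the 2.58 of Nr4a1, and Ptgs2 (2.39), which makes prostaglandins, came next to Nr4a3.

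Later the NR4A genes parted from the genes of that list with the largest changes, but lay on both sides of its median. The list's median log2 fold change was 0.22 at 12 h and 0.38 at 48 h. The main probe sets of Nr4a1, Nr4a2 and Nr4a3 gave 0.10, 0.39 and 0.07 at 12 h. At 48 h they gave 0.01, 0.33 and 0.46. At 12 h Rgs2 (1.89), a brake on G protein signaling, Areg (1.497), an EGF receptor ligand, and Ptgs2 (1.08) stood above every NR4A probe set, of which the largest change was 0.44. At 48 h the list's largest changes were those of Areg (2.42), Ptgs2 (1.75), Gem (1.64) and Rgs2 (1.60), against 0.87 at most for an NR4A probe set. Over the list, 19 genes were higher and 3 lower after 4 h, 16 and 4 after 12 h, 14 and 2 after 24 h, and 17 and 3 after 48 h. As shares these were 67.9% and 10.7%, 57.1% and 14.3%, 50% and 7.14%, and 60.7% and 10.7%. Over all genes they were 17.1% and 19.2%, 19.4% and 19.7%, 13.5% and 10.1%, and 22.5% and 18.4%. Crem, Sik1, Ppargc1a and the RXR genes stand on more than one of these lists.

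Genes reported as NR4A targets in glucose and fat metabolism, known mainly from mouse skeletal muscle and liver, were mostly lower or not called. Of 20 measured (21 listed), 1 was higher and 9 lower after 1 h, 2 and 12 after 4 h, 2 and 12 after 12 h, 2 and 7 after 24 h, and 2 and 12 after 48 h, with a median log2 fold change of -0.15 at 1 h and -0.28 at 48 h. The median over all genes was 0.0018 at 1 h and 0.0445 at 48 h. As higher and lower shares, the counts were 5% and 45%, 10% and 60%, 10% and 60%, 10% and 35%, and 10% and 60%. Over all genes the shares were 8.24% and 8.3%, 17.1% and 19.2%, 19.4% and 19.7%, 13.5% and 10.1%, and 22.5% and 18.4%. At 1 h, when NR4A mRNA was at its highest, the largest changes were in Pdk4 (-0.73), which restrains pyruvate oxidation, Pgam2 (-0.38), a muscle glycolytic enzyme, and Lpin1 (-0.34). At 48 h they were in Pgam2 (-2.23), Cd36 (-1.14), a fatty acid transporter, Eno3 (-1.03) and Pfkm (-0.90). The genes called higher were the phosphoglucomutase gene Pgm1 at all 5 times (0.10 to 0.45), the hexokinase gene Hk2 after 4 h (0.47) and 12 h (0.59), and Prkag3, a regulatory subunit of AMP-activated kinase, after 24 h (0.25) and 48 h (0.41).

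Targets described in other tissues showed no common direction (21 of 24 measured). At 1 h 4 were higher, among them the adhesion molecule gene Icam1 (0.71) and cyclin D1 (Ccnd1, 0.40), and 3 were lower, among them Vcam1 (-0.51) and Ddc (-0.37). At 12 h Star, which moves cholesterol into mitochondria, reached 1.64, with Vcam1 at -1.49. At 48 h Vcam1 was at -1.70, Star at 1.17 and Ccnd1 at 1.16. Higher and lower counts were 4 and 3 after 4 h, 4 and 4 after 12 h, 3 and 3 after 24 h, and 6 and 5 after 48 h. Shares from 1 h on were 19% and 14.3%, 19% and 14.3%, 19% and 19%, 14.3% and 14.3%, and 28.6% and 23.8%. Over all genes they were 8.24% and 8.3%, 17.1% and 19.2%, 19.4% and 19.7%, 13.5% and 10.1%, and 22.5% and 18.4%.

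Markers of other cells also moved. The summed intensity of 7 smooth muscle and pericyte markers (7 of 7 measured) was 7155 to 8137 at 1 h, against 5934 to 6368 in the controls of set I. Of the 7, 3 were called higher (Cnn1, Tagln and Acta2, by 0.49, 0.43 and 0.38 on the log2 scale). The other 4 were not called (Myh11 0.14, Cspg4 0.07, Pdgfrb 0.02 and Rgs5 -0.25). As higher and lower shares these were 42.9% and 0%, against 8.24% and 8.3% of all genes. At 48 h the sum was 5762 to 6398, against 3172 to 4547 in the controls of set II. There 4 of the 7 were called higher, Rgs5 was called lower (-0.50), and Myh11 (0.06) and Pdgfrb (-0.09) were not called. The higher and lower shares were 57.1% and 14.3%, against 22.5% and 18.4% of all genes. A sum of intensities weighs the brightest markers most, so the list did not move as 1. The sum of 9 fibroblast markers was 70335 to 72991 at 1 h, against 73565 to 78606 in the controls, and that of 7 measured of 8 endothelial markers was 1945 to 2298, against 2025 to 2483. Macrophage markers (11 of 11 measured) summed to 1566 to 1855 at 1 h, against 1642 to 1946 in the controls of set I, and to 3625 to 4479 at 48 h, against 6487 to 7378 in the controls of set II. The dimmest defining markers were Cd163 of macrophages and Vwf of endothelium, at level percentiles of 9.46 and 24.93. At 48 h, when Nr4a3 was called, the fibroblast sum was 65897 to 73528, against 78699 to 82331, and the endothelial sum 2074 to 2248, against 2998 to 3937, both wholly below the controls of set II. Called lower at 48 h were 6 of 9 fibroblast, 6 of 7 endothelial and 8 of 11 macrophage markers, and 0 were called higher. Those not called were Col1a1 (0.11), Tcf21 (0.04) and Col1a2 (-0.06) of fibroblasts and Tek (0.10) of endothelium. Of macrophages they were C1qb (0.08), Cd163 (0.03) and Aif1 (0.02). The cardiomyocyte sum overlapped the controls at 1 h (132810 to 138648, against 134782 to 141133) and at 48 h (116577 to 125141, against 117181 to 129302), and lay wholly below them at 12 h (129497 to 133361). The part of these cells in the NR4A values was not tested.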

How the data were processed

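RNA of 35 cultures was read on Affymetrix rat expression arrays. The intensity values were made by the authors with Robust Multichip Average (RMA) in GeneSpring and deposited on a linear scale, 1 per probe set and array; RMA draws all arrays to a common distribution, and folds of dim probe sets tend to be understated. No batch label is given. The 57 array controls among the 31099 probe sets were dropped. In 427 probe sets, none of them NR4A, 471 values had been turned into dates and were read back. Gene names come from the array annotation (20826 probe sets with 1 symbol, 436 with several, 9780 with none).

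Values were taken to log2. The sets differ in upper quartile (341.31 to 372.0 and 394.67 to 416.4) and were treated as normalized separately, with every comparison inside a set. The methods give 2 sets with a control each, and control labels ending in a and b were read as the first and second. Per set, limma 3.58.1 (R 4.3.3) fitted 1 mean per group to 31042 probe sets, with moderated variances and Benjamini-Hochberg adjustment over all of them, separately per comparison. Calls were made at an adjusted p under 0.05. The median residual SD was 0.1145 in set I (16 degrees of freedom) and 0.1199 in set II (12). Probe sets of different genes were not set against each other in level. Fold changes were compared by exact permutation over 252 divisions of 10 arrays (scipy 1.17.1). On simulated data with 50 probe sets altered per fold size, the 1 h comparison over 31042 probe sets called 27 of those altered 1.25-fold, 45 of those altered 1.5-fold and 50 of those altered 2-fold. In set II it called 22, 40 and 50 at 24 h and 25, 38 and 50 at 48 h. Many changes of 1.25-fold were thus missed in the simulation. Few of its probe sets were altered, while 6.32% of probe sets were called higher at 1 h on the arrays. The adjusted threshold depends on that share, so the miss rate on the arrays was not measured.

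Named were all NR4A probe sets, the RXR genes, up to 4 genes with the largest called change per list and time, and the 5 genes most like each member. Outside this rule, Nr0b2, Nr1d1 and Nr1h4 at 1 h, Pgm1, Prkag3 and the single cell type markers were named after their values were seen. The members and gene lists were chosen with earlier results of these data known. Alternatives were the methods' one-way analysis without moderation, array weights, quantile normalization or centring, 1 model for all arrays, only the 2 groups compared, other probe sets of a gene or their mean, a replicate block and leaving out each array.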

Additional observations from a re-analysis of the deposited data

Results flagged for a closer look

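Across the 42 groups of 5 arrays (6 NR4A probe sets in 7 groups), 4 held an array far from the others, where chance gives about 1 in 20 groups. Nr4a2 probe set 1387410_at read 5.37 in replicate 3 of 48 h (nearest 4.874, gap over range 0.73) and 4.381 in replicate 5 of the control of set II (nearest 4.611, 0.822). Nr4a3 probe set 1393389_at read 5.365 in replicate 4 of the control of set I (nearest 5.594, 0.824). Nr4a3 probe set 1369217_at read 4.457 in replicate 4 of 48 h (nearest 4.682, 0.773).

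At the main probe sets the effect of stretch differed between times in 7 of the tested contrasts (limma, log2 differences). The 4 h minus 1 h difference was -2.2638 for Nr4a1, -0.8845 for Nr4a2 and -2.0758 for Nr4a3. The 12 h minus 1 h difference was -2.4847 for Nr4a1, -0.67 for Nr4a2 and -2.3374 for Nr4a3. The 12 h minus 4 h difference of Nr4a1 was -0.2208 (adjusted p = 0.00783). Among the other probe sets, 1369067_at was called at 4 h minus 1 h (-3.44). At 12 h minus 1 h 1369067_at (-3.6903), 1387410_at (-0.2965) and 1369217_at (-0.2683) were all called.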

How the results depend on the processing

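The 1 h rises of the 3 genes kept their direction and call under every alternative run, left-out arrays included. This held also where another probe set or a mean of probe sets stood in, down to 0.4488 for Nr4a2 and 0.2606 for Nr4a3. In the other alternatives the main probe sets gave 2.5454 to 2.6124 for Nr4a1, 1.0079 to 1.1389 for Nr4a2 and 2.2917 to 2.4873 for Nr4a3. Over the same alternatives the other probe sets gave 0.3615 to 0.4999 (1387410_at), 4.0515 to 4.2486 (1369067_at) and 0.2265 to 0.2962 (1369217_at, whose call was lost with single arrays left out). The causes of the other changes were not tested. With 1387410_at, Nr4a2 gave 0.1523 at 12 h and -0.2297 at 4 h against 1 h, both no longer called, and -0.0668 at 12 h against 4 h, of opposite sign. With 1369217_at, Nr4a3 gave 0.1605 at 4 h and -0.1001 at 4 h against 1 h, not called, and -0.0077 at 12 h, -0.0261 at 24 h and -0.0153 at 48 h, of opposite sign. With 1369067_at it was called at 12 h (0.4394) and 24 h (0.623). With the mean of its probe sets, Nr4a2 was called at 4 h (0.1995) and 48 h (0.3199).

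In set II, calls missing from the separate fits were gained for Nr4a2 in 1 model of all arrays (0.3134 at 24 h, 0.3287 at 48 h) and with centred arrays (0.3794 at 48 h), and for Nr4a3 at 24 h with array weights (0.3693), in 1 model of all arrays (0.356) or with only the 2 groups compared (0.356). Nr4a1 at 48 h turned to -0.0157 with array weights. The values of 1369217_at near 0 turned positive with centring (0.0252 at 12 h, 0.0044 at 24 h, 0.0354 at 48 h) and array weights (0.0088 at 12 h). Centring raised the count of other nuclear receptors called at 48 h to 17, and the mean of probe sets raised that of partners at 4 h to 8.

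Replicate numbers did not pair the arrays (mean r of same-numbered deviations -0.0168 over 30 pairs in set I and 0.0172 over 15 in set II). With the replicate block, partners called at 1 h numbered 4, Nr4a3 probe set 1369067_at at 24 h missed the threshold (0.623, adjusted p = 0.0552), Nr4a2 probe set 1387410_at at 48 h passed it (0.3112, adjusted p = 0.0203), as it did with centred arrays, array weights and 1 model of all arrays, and no other NR4A call changed with the block.

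Leaving out each array in turn gave -0.0993 to 0.1232 for Nr4a1 at 48 h and -0.2151 to 0.0073 at 48 h against 24 h. Nr4a2 ranged over 0.1405 to 0.2346 at 4 h (called without control replicate 2 of set I, adjusted p = 0.0314, or replicate 5 of 1 h, 0.0451), 0.1818 to 0.2366 at 12 h against 4 h (called without replicate 5 of 1 h, 0.0445) and -0.1145 to 0.0741 at 48 h against 24 h. Nr4a3 ranged over 0.274 to 0.3526 (4 h), 0.2977 to 0.4387 (24 h) and -0.2857 to -0.2052 (12 h against 4 h) (called without replicate 4 of 1 h, 0.0458). Differences between fold changes ranged over -0.3634 to -0.2449 (Nr4a1 minus Nr4a2, 12 h), 0.1079 to 0.2537 and -0.0373 to 0.0595 (Nr4a1 minus Nr4a3, 1 h and 4 h), and -0.0627 to 0.14 and -0.0273 to 0.2336 (Nr4a3 minus Nr4a2, 24 h and 48 h). Single probe sets ranged over -0.0183 to 0.1204 (1387410_at, 24 h), and for 1369217_at over 0.2265 to 0.2962 (1 h, the call lost 5 times), -0.0522 to 0.028 (12 h), -0.0552 to 0.0086 (24 h) and -0.0444 to 0.0354 (48 h). Precision rests on 5 arrays per group.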
